A study of Mus musculus with 4 samples.

Results

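The Id family comprises 4 genes, Id1, Id2, Id3 and Id4, and all 4 were measured, out of 19938 named genes. A member was taken as a probe set whose platform annotation holds a single gene symbol equal to that of the family, and each gene had 1 such probe set, so no second probe set was there to compare. The arrays were hybridised with RNA of laser-captured epidermis from the hairless hindpaw skin of mice in which the K14 promoter, active in basal keratinocytes, drives either noggin or BMP4. Each array carried a pool of 3 animals, so 6 animals stand behind the 2 arrays of either line. Both groups share the promoter, the skin site and the capture of 8 to 10 epidermal strips per animal, while the labels used here state no strain, age or sex. Non-transgenic skin was not analysed here, so each difference sets the noggin line against the BMP4 line, as the log2 mean of noggin minus that of BMP4.

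Id proteins are helix-loop-helix proteins without the basic region that contacts DNA. They bind E proteins, the ubiquitous basic helix-loop-helix factors encoded by Tcf3, Tcf4 and Tcf12, and hold them off the E-box sites at which E proteins pair with tissue-specific partners. BMP ligands bind receptor kinases that phosphorylate SMAD1, SMAD5 and SMAD9, which enter the nucleus with SMAD4 and switch on Id genes directly, so Id transcripts are commonly read as a measure of BMP signalling. Noggin binds BMP ligands, BMP4 among them, outside the cell and keeps them from their receptors.

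The promoter sequences of the family are shown because SMAD proteins act on Id genes through DNA. They are the 250 bases before the RefSeq start of each gene in GRCm38.p6, 5′ to 3′ on the strand of the gene, for the 3 members that the promoter table holds. Capitals mark GGCGCC, a GC-rich palindrome of the kind bound by SMAD1 and SMAD5, and GTCTG or its reverse complement CAGAC, which holds the SMAD4-bound core.
Id2, chr12:25096093-25096342, minus strand: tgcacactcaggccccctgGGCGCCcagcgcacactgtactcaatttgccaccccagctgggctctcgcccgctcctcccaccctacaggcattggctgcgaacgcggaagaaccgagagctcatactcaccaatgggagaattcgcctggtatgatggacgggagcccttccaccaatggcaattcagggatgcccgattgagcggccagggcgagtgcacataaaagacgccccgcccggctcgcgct
Id3, chr4:136143572-136143821, plus strand: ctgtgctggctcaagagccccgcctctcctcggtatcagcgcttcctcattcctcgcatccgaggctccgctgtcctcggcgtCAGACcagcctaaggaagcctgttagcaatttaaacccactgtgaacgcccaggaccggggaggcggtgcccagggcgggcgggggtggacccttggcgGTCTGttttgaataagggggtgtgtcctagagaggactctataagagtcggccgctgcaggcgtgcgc
Id4, chr13:48260866-48261115, plus strand: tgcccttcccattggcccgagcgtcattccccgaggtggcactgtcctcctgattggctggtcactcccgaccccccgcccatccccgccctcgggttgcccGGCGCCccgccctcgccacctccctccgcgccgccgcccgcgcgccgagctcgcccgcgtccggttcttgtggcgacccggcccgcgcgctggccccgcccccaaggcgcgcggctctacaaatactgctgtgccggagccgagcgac

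The Id2 window held 1 GGCGCC, which begins 231 bases before the start, and the Id4 window held 1 that begins 148 bases before the start. The Id3 window held no GGCGCC and 2 copies of the shorter motif, CAGAC at 167 and GTCTG at 68 bases before the start. Among 32851 windows of the same length, 9.59% held GGCGCC and 42.2% held GTCTG or CAGAC on either strand, so the short motif is common. The motifs do not overlap in these windows. The GC content was 62.8% for Id2, 62.8% for Id3 and 75.6% for Id4. A match is a description of the letters and no evidence of binding, and windows this close to the start do not hold distal elements.

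All 4 Id genes had a higher mean in BMP4 than in noggin epidermis, by 1.57-fold for Id3, 1.49-fold for Id1, 1.21-fold for Id2 and 1.04-fold for Id4, and no difference passed the test. The noggin and BMP4 arrays were separate for Id3 and overlapped for Id1, Id2 and Id4. Limma, with Benjamini-Hochberg adjustment over all 35556 probe sets, called 0 Id genes and 0 probe sets in all (0% called), while 1994 probe sets (5.61%) and 0 Id genes lay at an unadjusted p below 0.05. A lower mean in noggin was found in 52.2% of the 19938 named genes. The noggin arrays both lay below the BMP4 arrays in 17.9% of named genes, against 1 of the 4 Id genes. A difference of -0.5 or lower was found in 1.21% of named genes, and in Id1 and Id3. An exact permutation test of 2 arrays against 2 has 6 possible splits, so its smallest two-sided p is 2 of 6, above the threshold.

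Id3, a direct SMAD target, had log2 values of 8.29 and 7.72 on noggin arrays 1 and 2, and of 8.95 and 8.37 on BMP4 arrays 1 and 2. The lower BMP4 array lay 0.08 above the higher noggin array, so the groups were apart by a margin far smaller than the 0.57 that separated the arrays within each group. Noggin epidermis averaged 8.01 ± 0.40 (SD, n = 2) and BMP4 epidermis 8.66 ± 0.41 (SD, n = 2). The difference was -0.65, and its 95% interval ran from -1.47 to 0.16 (limma, adjusted p = 0.913). The interval corresponds to a BMP4 over noggin fold between 0.89 and 2.77. Leaving out each array in turn gave differences between -0.94 and -0.37, with -0.37 on leaving out noggin replicate 2 or BMP4 replicate 1.

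Id1, the family member most often used as a reporter of BMP signalling, had log2 values of 8.23 and 7.90 on noggin arrays 1 and 2, and of 9.05 and 8.22 on BMP4 arrays 1 and 2. BMP4 replicate 1 stood alone, and BMP4 replicate 2 lay 0.01 below noggin replicate 1. Noggin epidermis averaged 8.06 ± 0.23 (SD, n = 2) and BMP4 epidermis 8.63 ± 0.59 (SD, n = 2). The difference was -0.57, and its 95% interval ran from -1.47 to 0.32 (limma, adjusted p = 0.939). The BMP4 over noggin fold of 1.49 thus has an interval from 0.80 to 2.76. Without BMP4 replicate 1 the difference was -0.15, and without BMP4 replicate 2 it was -0.99.

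Id2, which mice need to form Langerhans cells, had log2 values of 8.52 and 7.93 on noggin arrays 1 and 2, and of 8.84 and 8.15 on BMP4 arrays 1 and 2. Each group held a high array and a low array, and the high noggin array exceeded the low BMP4 array by 0.37. Noggin epidermis averaged 8.23 ± 0.42 (SD, n = 2) and BMP4 epidermis 8.50 ± 0.49 (SD, n = 2). The difference was -0.27, and its 95% interval ran from -1.17 to 0.63 (limma, adjusted p = 0.977). The sign turned to 0.02 without noggin replicate 2 and to 0.07 without BMP4 replicate 1, so Id2 had no stable direction.

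Id4, a member studied chiefly in neural and mammary progenitors, had log2 values of 7.33 and 7.19 on noggin arrays 1 and 2, and of 7.42 and 7.22 on BMP4 arrays 1 and 2. All 4 values lay within 0.24 of each other and the groups overlapped. Noggin epidermis averaged 7.26 ± 0.10 (SD, n = 2) and BMP4 epidermis 7.32 ± 0.14 (SD, n = 2). The difference was -0.06, and its 95% interval ran from -0.40 to 0.27 (limma, adjusted p = 0.990). The interval bounds the BMP4 over noggin fold between 0.83 and 1.32, which is the narrowest of the 4 genes. Its sign turned on leaving out noggin replicate 2 (0.01) or BMP4 replicate 1 (0.04), and on centring the arrays on basal keratinocyte markers (0.03).

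**Figure D1:**
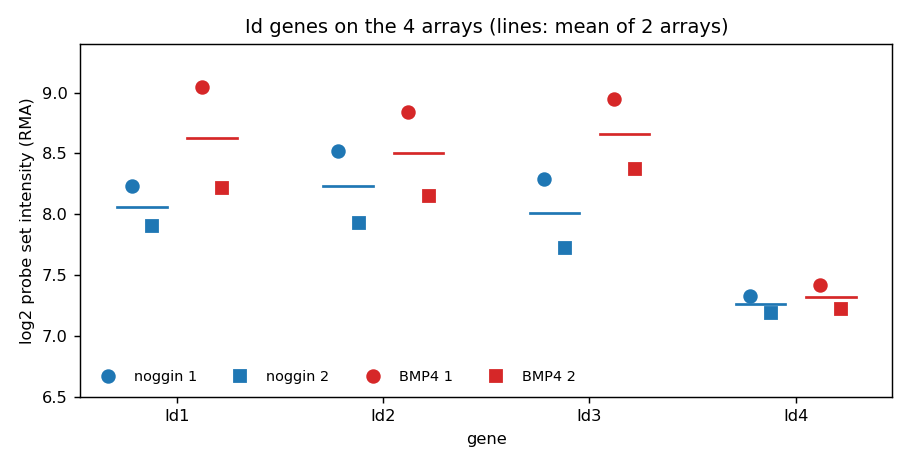
Log2 probe set intensity of Id1, Id2, Id3 and Id4 (y axis) on each of the 4 arrays, with noggin in blue, BMP4 in red, replicate 1 as circles, replicate 2 as squares and group means as lines. BMP4 replicate 1 is the highest and noggin replicate 2 the lowest point for every gene, and the colours are separate only for Id3.

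**Figure D2:**
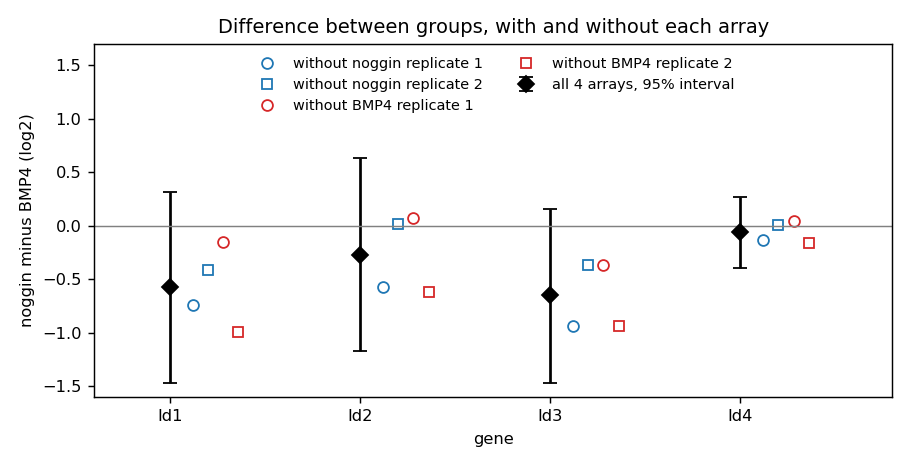
Noggin minus BMP4 difference (log2, y axis) of each Id gene over all 4 arrays with its 95% interval (black), and with each array left out (open symbols). All 4 intervals span 0, and the open symbols of Id2 and Id4 lie on both sides of 0.

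All 4 genes lay above the median of every array, 6.04 to 6.06, and Id1, Id2 and Id3 lay above the upper quartile of every array, 7.66 to 7.71. Detection calls were not used here.

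The arrays stood in nearly the same order for all members. BMP4 replicate 1 was highest and noggin replicate 2 lowest for all 4 Id genes, an order found in 9.54% of named genes. This order was picked out after the values were seen. Relative to each gene's mean over the 4 arrays, BMP4 replicate 1 lay above by 0.70 for Id1, 0.48 for Id2, 0.61 for Id3 and 0.13 for Id4. Noggin replicate 2 lay below, at -0.45 for Id1, -0.43 for Id2, -0.61 for Id3 and -0.10 for Id4. Between these extremes, noggin replicate 1 was above BMP4 replicate 2 for Id1, Id2 and Id4 and below it for Id3. Averaged over the 4 genes, the centred value was 0.48 in BMP4 replicate 1, -0.09 in BMP4 replicate 2, 0.01 in noggin replicate 1 and -0.40 in noggin replicate 2. The array pair BMP4 replicate 1 and noggin replicate 2 thus differed by 1.15 in Id1, 0.91 in Id2, 1.23 in Id3 and 0.24 in Id4, whereas BMP4 replicate 2 and noggin replicate 1 differed by at most 0.37 in any of them. Within each line, replicate 1 lay above replicate 2 for all 4 genes. Noggin minus BMP4 was -0.82 in Id1, -0.32 in Id2, -0.65 in Id3 and -0.09 in Id4 on the arrays numbered 1. On the arrays numbered 2 it was -0.32, -0.22, -0.65 and -0.03 in the same order. These patterns were picked out after the values were seen, and their share over all named genes was not counted. A batch shared by same-numbered arrays was not tested for the Id genes.

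The spread between pools of the same line was wide for Id1, Id2 and Id3 compared with other genes. The median gap between arrays of the same group was 0.13 in noggin and 0.12 in BMP4 over the named genes. The gap between the BMP4 arrays was 0.83 for Id1, 0.69 for Id2 and 0.57 for Id3, sizes reached by 1.13%, 1.97% and 3.07% of named genes. The gap between the noggin arrays was 0.59 for Id2 and 0.57 for Id3, reached by 2.11% and 2.29% of named genes, and 0.33 for Id1, reached by 12.4%. Id4 had gaps of 0.14 in noggin and 0.20 in BMP4 that 46.8% and 27.0% of named genes reached. The difference between lines was itself large for Id3 and Id1, with 0.632% and 0.873% of named genes as far on the BMP4 side. For Id3 it was 0.65, against gaps of 0.57 in both groups, and for Id1 0.57, between gaps of 0.33 and 0.83. For Id2, 4.66% of named genes lay as far on the BMP4 side, and for Id4 32.5%.

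Likeness between profiles was measured as the root mean square distance between mean-centred log2 values over the 4 arrays, in which a distance of 0 is an identical profile. Id3 was closest to Gpm6a, a membrane glycoprotein of neurons (0.078), to Bambi, a BMP-induced pseudoreceptor that dampens BMP and TGF-beta signalling (0.082), and to the secreted metalloprotease Adamts1 (0.083). Bambi thus ranked 2 of 19937 genes for Id3, with log2 values of 6.95 and 6.47 on noggin arrays 1 and 2 and of 7.82 and 7.22 on BMP4 arrays 1 and 2. For the other members Bambi ranked 26 (Id1), 1472 (Id2) and 19469 (Id4). Id1 was closest to Lgr4, an R-spondin receptor of the WNT pathway (0.019), which read 7.55 and 7.27 on noggin arrays 1 and 2 and 8.41 and 7.59 on BMP4 arrays 1 and 2. The next for Id1 were the keratin gene Krt23 (0.085) and the solute carrier gene Slc35a5 (0.086). Id2 was closest to Cmtm8 (0.033) and to the probe sets annotated to the microRNA genes Mir205 (0.056) and Mir15a (0.076).

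Within the family, Id1 and Id3 were the most alike, at a distance of 0.13, which ranked Id1 at 14 among all genes for Id3. Id2 was 0.18 from Id1 and 0.20 from Id3. Id4 was 0.25 from Id2, 0.34 from Id1 and 0.36 from Id3. Its nearest genes, Eef1akmt1, 1700084J12Rik and 1700037H04Rik, were at 0.0089 or less, but 5257 genes lay within 0.1 of Id4 because most genes varied little. Within 0.1 of the other members lay 9 genes for Id1, 6 for Id2 and 5 for Id3. These distances describe 4 arrays and were not tested.

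Other genes commonly induced by BMP signalling followed the Id pattern in part. Of 19 measured genes of this list, which does not include the Id genes, 16 averaged lower in noggin and 3 higher, with a median difference of -0.17 against -0.01 over all named genes, and 0 passed the test. The noggin arrays were both below the BMP4 arrays in 9 of the 19, against 17.9% of named genes, and above in 3 of the 19, against 15.7%. The order seen in the Id genes, BMP4 replicate 1 highest and noggin replicate 2 lowest, occurred in 7 of the 19, against 9.54% of named genes. These 7 were Bambi, Msx1, Msx2, Dlx2, Dlx5, Hey1 and Foxn1. The order was not confined to this list, as 5 of 16 hair follicle genes had it, and Foxn1 is in both lists. The BMP target list and the Id genes were chosen with earlier results of these arrays known, so the count is not independent evidence of a direction.

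Bambi was 1.75-fold higher in the BMP4 mean (limma, adjusted p = 0.874), with a difference between -1.10 and -0.50 on leaving out each array. Msx2, a homeobox factor of hair and nail, read 6.67 and 6.34 on noggin arrays 1 and 2 and 7.63 and 6.92 on BMP4 arrays 1 and 2, a 1.71-fold difference of means (limma, adjusted p = 0.874). Its log2 difference lay between -1.13 and -0.42 when 1 array was left out. Its distance was 0.11 from both Id3 and Id1, at rank 8 and 15, but it ranked 1378 for Id2 and 19433 for Id4. Msx1, a related homeobox factor, read 6.47 and 6.44 against 6.69 and 6.62, a 1.15-fold difference with separate groups (limma, adjusted p = 0.911). The 3 genes with a higher noggin mean were Gata3 (0.54), the antiproliferative Tob1 (0.14) and the TGF-beta co-receptor Eng (0.08), and these were named after their values were seen. Gata3, a transcription factor of the epidermal barrier, read 8.49 on BMP4 replicate 1 and between 9.25 and 9.44 on the other arrays.

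**Figure D3:**
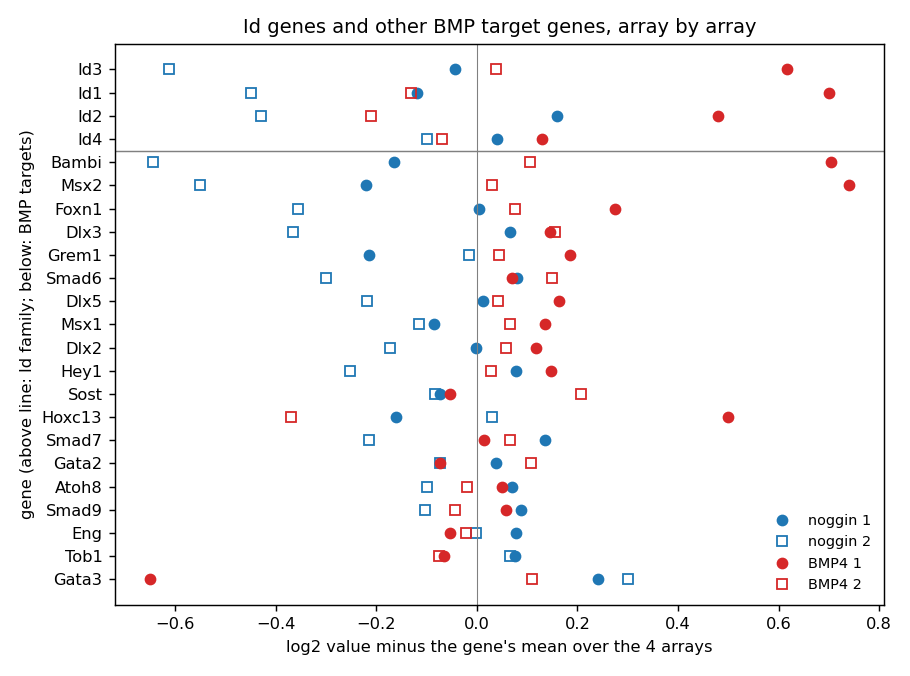
Log2 value minus the gene's mean over the 4 arrays (x axis) for the 4 Id genes, above the line, and 19 other BMP target genes, below it (y axis), with noggin in blue, BMP4 in red, replicate 1 as filled circles and replicate 2 as open squares. Id3, Id1, Bambi and Msx2 all show BMP4 replicate 1 far right and noggin replicate 2 far left, whereas Gata3 is turned the other way.

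Upstream of the Id genes, the 19 measured ligands, antagonists, receptors and SMADs of BMP signalling had a median difference of 0.01, with 9 lower and 10 higher in noggin and 0 past the test. Bmp4 itself read 7.77 and 7.86 on noggin arrays 1 and 2 and 8.22 and 8.03 on BMP4 arrays 1 and 2, a 1.24-fold difference of means with separate groups (limma, adjusted p = 0.874). Nog read 5.92 and 5.99 on the noggin arrays and 6.13 and 6.04 on the BMP4 arrays. Bmp7, another epidermal BMP ligand, read 9.18 and 9.0 in noggin and 9.19 and 9.31 in BMP4, 1.12-fold apart. The sources used here do not say whether these probe sets cover the transgenes, so they do not check the labels. TGF-beta responsive genes, which answer to the other SMAD branch, were higher in the noggin mean for 7 of 9 genes, with a median of 0.10 and none past the test; the smallest p belonged to the SMAD corepressor genes Ski (0.14) and Skil (0.13) and to Pmepa1 (0.10).

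The E proteins, the binding partners of Id proteins, showed no common direction, and 0 of 3 passed the test. Tcf12, which encodes HEB, read 8.31 and 8.68 on noggin arrays 1 and 2 and 8.68 and 8.77 on BMP4 arrays 1 and 2. The groups met near 8.68, and the difference of -0.23 had a 95% interval from -0.66 to 0.20 (limma, adjusted p = 0.946). Tcf4, which encodes E2-2, read 8.15 and 8.47 in noggin and 7.98 and 8.26 in BMP4, which differ by 0.19 (interval -0.28 to 0.67; limma, adjusted p = 0.957). Tcf3, which encodes E2A, read 6.88 and 6.66 in noggin and 6.74 and 6.83 in BMP4, which differ by -0.02 (interval -0.34 to 0.30; limma, adjusted p = 0.999).

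Tissue-specific basic helix-loop-helix factors, which pair with E proteins, had 7 of 15 measured genes lower and 8 higher in noggin, with a median difference of 0.00. The genes of smallest p were Myf6, a muscle regulator (0.46), Lyl1, a factor of blood cells (0.16), and Ascl2 (0.15), all with a higher noggin mean. Myf6 read 5.01 and 4.77 in noggin and 4.41 and 4.45 in BMP4, and the BMP4 values lie below the lower quartile of the arrays, 4.71 to 4.72. The Hes, Hey and Bhlhe repressors had a median of 0.03 over 9 genes, with Bhlhe41 at -0.34, Heyl at -0.17 and Hes7 at 0.15. None of these lists held a gene past the test (limma).

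Cyclin-dependent kinase inhibitors include genes that E proteins induce and Id proteins hold down. Of 7 listed genes 6 were measured, and Cdkn1a, which encodes p21, was not among these 6. Of the 6 measured genes 4 averaged lower in noggin, the median difference was -0.03 and 0 passed the test. Cdkn1b, which encodes p27, read 8.18 and 8.57 in noggin and 9.69 and 9.46 in BMP4, 2.30-fold higher in the BMP4 mean (limma, adjusted p = 0.701), but its other probe set differed by only -0.18. Cdkn2d differed by -0.16 and Cdkn2a, which encodes p16 and p19ARF, by 0.08.

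Cell cycle genes had a lower noggin mean for 21 of the 22 measured. Their median difference was -0.48, and 0 passed the test. The noggin arrays were both below the BMP4 arrays in 14 of the 22, against 17.9% of named genes, and above in 0, against 15.7%. BMP4 replicate 1 was the highest array for 19 of the 22, as for all 4 Id genes. How often a single array is highest or lowest over all named genes was not counted, here and for the lists below. The noggin arrays stood the other way round over the list, in which noggin replicate 1 had a centred median of -0.30 against -0.05 in noggin replicate 2, whereas the Id genes were at 0.00 and -0.44. Foxm1, a transcription factor of mitotic genes, read 6.44 and 6.34 in noggin and 7.40 and 7.24 in BMP4, so its groups were apart by more than its gaps between pools, unlike Id3 (limma, adjusted p = 0.636). Only Foxm1, Kif20a and Mcm5, 3 of the 22, had BMP4 replicate 1 highest and noggin replicate 2 lowest, an order found in 9.54% of named genes. The list was thus near the share of all genes for the array order of the Id genes. Mcm5, a replication helicase subunit, was named after its values were seen. Kif20a, a mitotic kinesin, differed by -0.68 and the cyclin gene Ccna2 by -0.70. Whether the difference in cell cycle genes has a part in the Id values was not tested. Without BMP4 replicate 1 the median was -0.23 and without noggin replicate 1 it was -0.25.

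The captured tissue carried the defining genes of glabrous epidermis. Krt14, the keratin of basal cells, read 12.25 to 12.42 over the 4 arrays, and Krt9, the keratin of palm and sole skin, 13.28 to 13.44. Averaged over 10 basal keratinocyte markers the log2 level was 9.51 and 9.52 in noggin and 9.61 and 9.56 in BMP4, and 7 of 10 had a lower noggin mean, with a median of -0.12 and with Itgb4 (-0.18), Col17a1 (-0.15) and Krt14 (-0.14) of smallest p. Over 9 suprabasal markers it was 12.66 and 12.68 in noggin and 12.60 and 12.63 in BMP4, with a median difference of 0.04 and with Krtdap (0.19), Sbsn (0.10) and Lor (0.10) of smallest p. Bulk epidermis holds other cells that express Id genes, and in these data fewer cells of a type and less RNA per cell cannot be told apart. No marker list held a gene past the test.

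Langerhans cell and macrophage markers differed in the direction opposite to the Id genes. Of 15 markers 13 had a higher noggin mean, and 10 had the noggin arrays both above the BMP4 arrays, against 15.7% of named genes. The mean log2 level was 8.06 and 8.20 in noggin against 7.08 and 7.90 in BMP4. BMP4 replicate 1 was the lowest array for 14 of the 15, and it was the highest array for Id2. Cd207, the langerin of Langerhans cells, read 7.21 and 7.28 in noggin and 6.48 and 6.86 in BMP4, and Cd52 differed by 1.08 and H2-Eb1, in the opposite direction, by -0.95. Without BMP4 replicate 1 the median difference of this list was 0.35 in place of 0.71. The T cell list (13 of 13 higher in the noggin mean, mean level 6.23 and 6.30 against 5.89 and 6.09) also had its lowest value on BMP4 replicate 1, and led with Cd69 (0.48), Itgae (0.28) and Ctla2a (0.79). Its median difference was only 0.17, and both noggin arrays lay above the BMP4 arrays in 6 of the 13. Cd69 read 4.27 and 4.5 in BMP4, which lie below the lower quartile of the arrays, 4.71 to 4.72.

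Among other cell types, hair follicle genes had noggin replicate 2 lowest for 12 of 16 genes and BMP4 replicate 1 highest for 7 of 16. Their mean log2 level was 6.22 and 6.07 in noggin against 6.94 and 6.64 in BMP4, 14 of 16 had a lower noggin mean, and the median difference was only -0.12. The gap in mean level therefore rests on a few genes with large differences. S100a3 (-1.62), Krt84 (-4.75) and Krt25 (-1.74) had the smallest p. BMP4 replicate 1 was highest and noggin replicate 2 lowest for 5 of the 16 hair follicle genes, against 9.54% of named genes. Krt28 was below the lower quartile on every array. Endothelial markers, from cells in which Id1 and Id3 are well known, had a mean of 6.38 and 6.17 in noggin and 6.11 and 6.31 in BMP4, with 4 of 10 lower in noggin and a median of 0.06; Kdr (0.16), Egfl7 (-0.30) and Pecam1 (0.33) had the smallest p. Melanocyte markers lay at 5.87 and 5.90 in noggin and 5.79 and 5.85 in BMP4, with 3 of 8 lower, and Tyr below the lower quartile on every array; Pmel (0.22), Tyrp1 (0.16) and Dct (0.23) led the list. Merkel cell markers lay at 6.28 and 5.95 in noggin and 6.21 and 6.16 in BMP4, with 5 of 8 lower, Krt20 and Sox2 below the lower quartile on every array, and Tubb3 (-1.05), Piezo2 (0.36, with -0.15 and 0.01 at its other probe sets) and Sox2 (0.16) of smallest p.

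Markers of muscle, fibroblasts and sebaceous gland had their lowest mean level on BMP4 replicate 1, the array where the Id genes were highest. Skeletal muscle markers had mean levels of 8.58 and 7.72 in noggin and 7.09 and 8.0 in BMP4, with 9 of 10 higher in the noggin mean, and Acta1, the skeletal actin, read 7.12 on BMP4 replicate 1 and 8.73 to 9.43 on the others. The other muscle genes of smallest p were Myl1 (0.42) and Myh1 (0.85). Both noggin arrays lay above the BMP4 arrays in only 1 of the 10 muscle markers, against 15.7% of named genes. Fibroblast markers had mean levels of 7.97 and 8.09 in noggin and 7.61 and 8.19 in BMP4, with 5 of 9 lower in noggin, and BMP4 replicate 1 was lowest for 9 of 9; Dpt (1.05), Pdgfra (0.09) and Lum (0.20) had the smallest p. Sebaceous gland markers had mean levels of 7.79 and 7.53 in noggin and 7.03 and 7.40 in BMP4, with 8 of 8 higher in the noggin mean, Plin2 (0.75), Mgst1 (0.75) and Scd1 (0.56) leading. Both noggin arrays lay above the BMP4 arrays in 4 of these 8, against 15.7% of named genes. Sweat gland markers lay at 6.80 and 6.54 in noggin and 6.58 and 6.84 in BMP4, with 5 of 9 lower, Cftr below the lower quartile on every array, and Krt7 (-0.31), Aqp5 (0.23) and Foxa1 (-0.21) of smallest p. The part of these cell types in the Id values was not tested. With BMP4 replicate 1 left out, the median difference of the Id genes was -0.06, against -0.42 with all arrays.

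**Figure D4:**
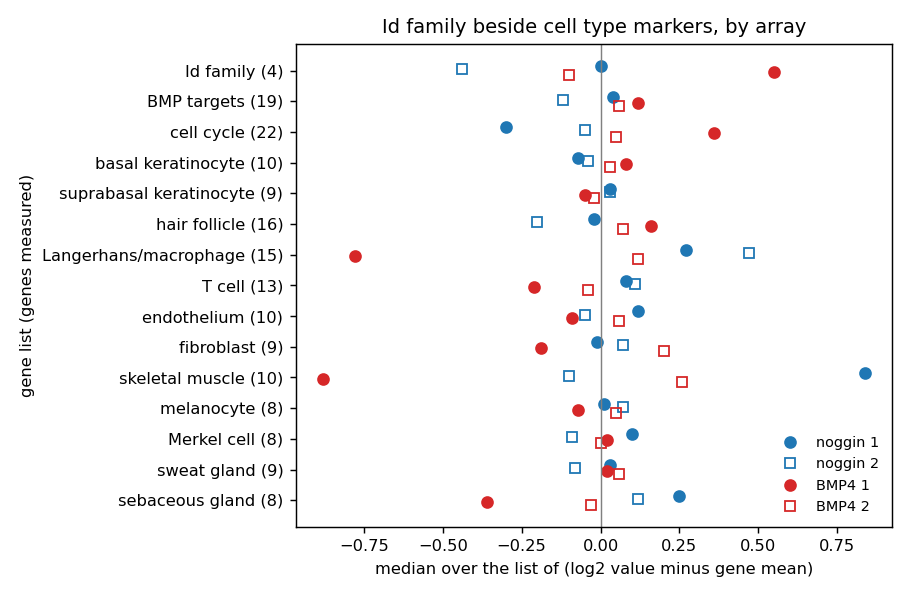
Median over each gene list of the log2 value minus the gene's mean over the 4 arrays (x axis), for the Id family, BMP targets, cell cycle genes and 12 marker lists (y axis, genes measured in brackets), with noggin in blue, BMP4 in red, replicate 1 as filled circles and replicate 2 as open squares. BMP4 replicate 1 is at 0.55 for the Id family and at -0.78 for Langerhans cell and macrophage markers.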

How the data were processed

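RNA of captured epidermis was amplified by the NuGEN pico protocol, biotin-labelled and hybridised to 4 arrays, per the labels' protocols. The deposited values are log2 intensities that the authors made with Affymetrix Expression Console and RMA, per the submitters' processing notes, with no version or settings. RMA corrects background, quantile-normalizes and summarizes probe sets, which removes differences in overall signal. Of 35556 probe sets, 21789 had 1 gene symbol, 1621 several and 12146 none here. A gene was represented by its brightest single-symbol probe set, and symbols were updated through the GRCm38.p6 gene table (21698 matched by Entrez identifier). Of 242 list entries, 231 were measured.

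Groups were compared with limma 3.58.1 (R 4.3.3; lmFit, then eBayes, two-sided, 2 residual and 2.08 prior degrees of freedom), with Benjamini-Hochberg adjustment over all probe sets and a threshold of 0.05. The limma steps, and no other part of the code, were tried on simulated arrays with planted changes. Errors are SDs of 2 arrays, each a pool. The p-values rest on a gene's spread between pools, which limma moderates with the spread of all probe sets. The number of arrays limits the precision. Named genes are the Id genes, all E proteins, the 3 genes of smallest p in each list, and the 3 genes nearest to each Id gene; others are defining markers of epidermis (Krt9), markers below the lower quartile on every array (Krt28, Tyr, Krt20 and Cftr), which were named after their values were seen, or are said to be so where they appear. The members and lists were chosen with earlier results of these data known. Replicate numbers are not known to pair the arrays, and no label links a number to a shared litter or day. Deviations of same-numbered arrays from group means correlated at -0.09 over 19938 genes. Most of these genes varied little, so this does not show whether the numbers pair the arrays for the Id genes. Alternatives were a replicate block, trend and robust priors, further normalizations, a filter on dim probe sets, the mean of all probe sets, a threshold of 0.1 and leaving out each array. Promoters are RefSeq windows of GRCm38.p6; the sources used here name no build for the array. Figures used matplotlib 3.10.9 in Python 3.11.15.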

Additional observations from a re-analysis of the deposited data

How the results depend on the processing

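No alternative called an Id gene: over 52 combinations of gene and alternative 0 passed, and 47 kept the direction. The exceptions were Id2 on leaving out noggin replicate 2 (0.02) or BMP4 replicate 1 (0.07), and Id4 in the same settings (0.01 and 0.04) and with arrays centred on basal keratinocyte markers (0.03), a centring that moved the median of all probe sets by 0.09. The replicate block, the 2 priors, the filter on dim probe sets and the mean of all probe sets could not change these differences. Their kept direction was fixed in advance and says nothing on stability. Leaving out each array gave -0.99 to -0.15 for Id1, -0.62 to 0.07 for Id2, -0.94 to -0.37 for Id3 and -0.16 to 0.04 for Id4. The adjusted p over the alternatives (limma) ran from 0.606 to 1.0 for Id1, 0.824 to 1.0 for Id2, 0.734 to 1.0 for Id3 and 0.881 to 1.0 for Id4. At an adjusted p of 0.05 each alternative fitted to probe sets called 0 of them, with 1542 to 2455 at an unadjusted p below 0.05. The fit to all 4 arrays with no other change also called 0 at an adjusted p of 0.1. With the replicate number as a block, the intervals were -0.98 to -0.32 for Id3 (limma, adjusted p = 0.948) and -1.13 to -0.02 for Id1 (limma, adjusted p = 0.988), and the count of calls stayed at 0. The numbers are not known to pair the pools. The median difference of the Id genes, an alternative added after seeing the data, ranged from -0.78 to -0.06 on leaving out each array, that of BMP targets from -0.22 to -0.08 and that of cell cycle genes from -0.63 to -0.23. The cause of these shifts was not tested.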
